A study of Mus musculus with 12 samples.

Results

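The 10 genes described here are the mouse insulin-like growth factor (IGF) ligands Igf1 and Igf2, the receptors Igf1r and Igf2r, and the binding proteins Igfbp2, Igfbp3, Igfbp4, Igfbp5, Igfbp6 and Igfbp7, chosen by gene symbol among the 39017 genes of the count table. All 10 were matched to 1 Ensembl identifier each, and all 10 passed the filter on low counts among the 14953 genes tested. RNA was sequenced in 12 libraries from whole adrenals of female mice of 10 to 11 weeks, on a mixed sv129-C57Bl/6 background, 6 controls (Ctrl, genotype ASCre/+) and 6 βCat-GOF mice (bigenic ASCre/+ ::Ctnnb1fl(ex3)/+), which carry a β-catenin allele that is stabilized once exon 3 is removed. Both groups carry the same Cre, inserted at the aldosterone synthase gene Cyp11b2, so that it is active in cells of the zona glomerulosa (zG), the outer layer of the cortex that makes aldosterone. The gland was processed whole, and each value mixes the zG with the zona fasciculata (zF), the X-zone, the medulla, the capsule, vessels and blood cells. In such samples fewer cells of a type and less RNA per cell cannot be told apart.

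IGF1 and IGF2 are small secreted proteins related to insulin. Both act through the receptor tyrosine kinase encoded by Igf1r, which signals through IRS adaptors, PI3 kinase and AKT to growth and survival, whereas the product of Igf2r, the cation-independent mannose 6-phosphate receptor, carries IGF2 to lysosomes for degradation. The high-affinity binding proteins hold IGFs in the extracellular space, and proteases release them. In the adrenal, IGF2 is known as a fetal growth factor that is often overproduced in adrenocortical carcinoma, and IGF1 supports steroidogenic cells.

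Between 13484675 and 25625494 reads per library were counted on genes, and 3 counts, taken as the floor of detection, corresponded to between 0.117 and 0.222 CPM, counts scaled to a common library size. This floor covers counting error only. Ctnnb1, the targeted gene, had between 20273 and 22606 normalized counts in Ctrl mice and between 19229 and 22432 in βCat-GOF mice, and counts over a whole gene do not show the loss of 1 exon. All markers fixed for zG, zF, X-zone, medulla, endothelium, capsule and fibroblasts, pericytes, macrophages, adipocytes and glia were detected, here meaning at least 1 count over the 12 libraries. The filter on low counts was passed by 9 of 10 zG, 8 of 9 pericyte and smooth muscle and 5 of 6 glial markers, and by all markers of the other lists. Summed zG markers ranged from 2917 to 3637 CPM in Ctrl mice and from 3654 to 4774 in βCat-GOF mice. A sum adds the CPM of the genes of a list, so that its most abundant genes weigh most. In controls these were Kcnk3 for zG, Cyp11b1 and Akr1b7 for zF, and Dcn for capsule and fibroblasts. In clustering of all genes that passed the filter, βCat-GOF replicates 1 and 2 grouped with the 6 controls, apart from the other 4. Yet these 2 had the highest zG sums of the 12 libraries, 4774 and 4729 CPM. They also had the lowest zF sums, 9988 and 13765 CPM. The labels of 3 pairs of libraries share a stem (Ctrl 1 and 2, Ctrl 3 and 4, βCat-GOF 1 and 2), and the counts of these pairs differed by more than sampling noise (chi-square per degree of freedom 42.6 to 46.1, where the remaining 27 pairs of one genotype had 16.6 to 148). These values alone do not show whether such a pair came from 1 animal or from a pair of animals. The paper's legend to its heatmap of these data gives 6 and 6 female mice. Each library is accordingly counted as a mouse here, with n = 6 in a group. Because of the shared stems, a further fit treated each same-stem pair as 1 animal, which leaves 4 control and 5 βCat-GOF animals. With the counts of each such pair summed, 0 of the 10 members passed edgeR's test. Animal labels begin with a number that is the same in all 6 controls and occurs in no βCat-GOF label, so whatever that number stands for cannot be told apart from genotype, and no within-batch value can be given.

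No member of the family passed the test between βCat-GOF and control adrenals. In edgeR's quasi-likelihood test with Benjamini-Hochberg adjustment over 14953 genes, 0 of the 10 had an adjusted p under 0.05, where 3.68% of all genes tested did. DESeq2 also called 0 of the 10, against 7.57% of all genes, and the cut-offs of the study on fold and mean count, applied to the edgeR fit, left 0 of the 10 and 2.35% of all genes. At an unadjusted p under 0.05 there were 2 members, Igf1r and Igf2, against 20.4% of all genes. By mean change 6 members were higher and 4 lower, the median log2 fold change was 0.07 against 0.00011 over all genes, and in 0 of the 10 were the groups free of overlap, against 2.78% of all genes. The spread between mice differed among the members. In βCat-GOF mice Igf1 spread more than 98.5% of all genes and Igfbp2 more than 96.0%, whereas Igfbp4 spread more than 39.3%, less than the median gene.

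**Figure D1:**
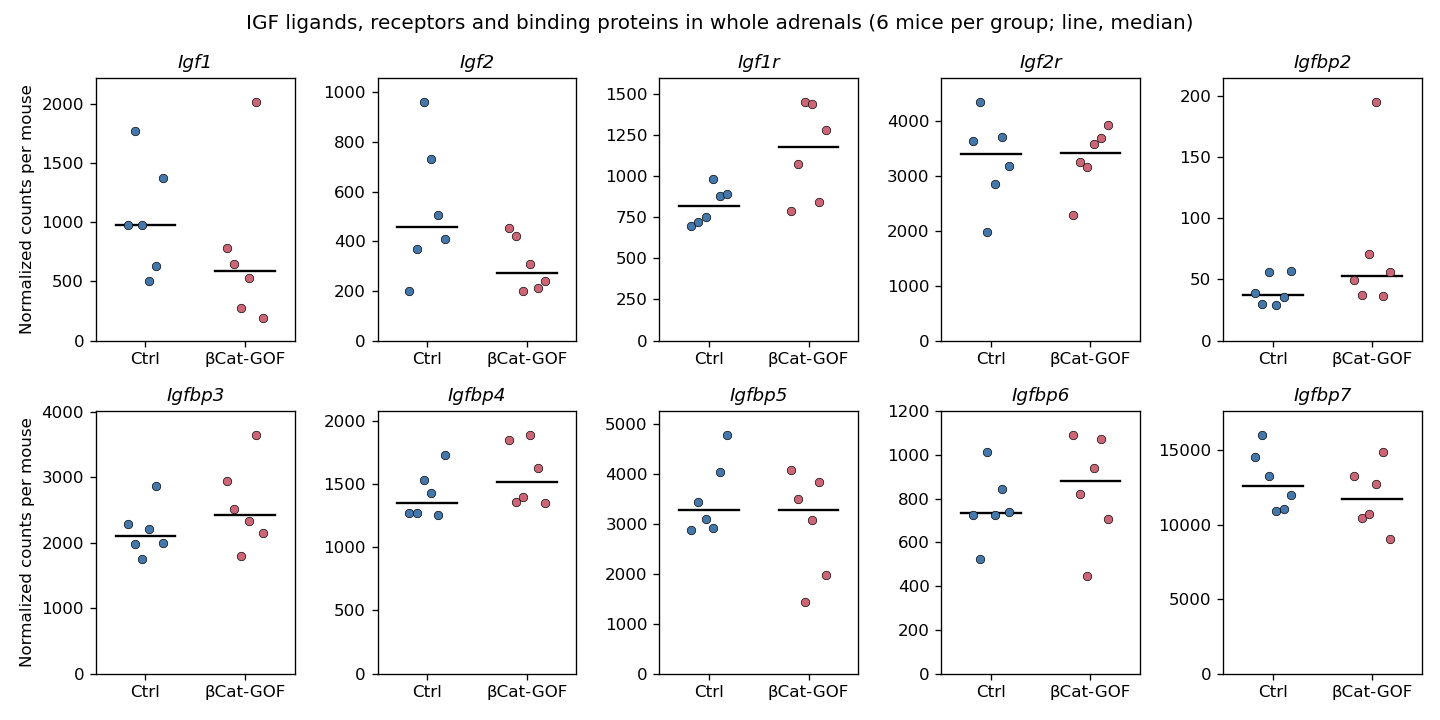
Normalized counts (vertical axis, from 0) of each of the 10 genes in 6 Ctrl (blue) and 6 βCat-GOF (red) mice, 1 point per mouse, with the group median as a line. The groups overlap for all 10 genes, and single βCat-GOF mice stand far above the others for Igf1 (2014) and Igfbp2 (195).

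Levels between genes were compared per exon length, as CPM per kilobase (kb) of exon. In controls Igfbp7 was the most abundant member, at 536 ± 84.5 CPM per kb (SD, n = 6). Igfbp7 binds IGFs weakly and is known as a product of vessel walls. The next were Igfbp3 (34.9 ± 6.27), Igfbp6 (34.3 ± 7.16) and Igfbp5 (29.3 ± 6.26 CPM per kb), whose ranges over the control mice overlapped. Igf2r (17.7 ± 4.42) and Igfbp4 (16.0 ± 2.12 CPM per kb) overlapped with each other as well. The lowest levels were those of Igf1 (5.25 ± 2.4), Igf2 (4.63 ± 2.39), Igf1r (2.45 ± 0.343) and Igfbp2 (1.12 ± 0.335 CPM per kb). Igf1r lay within the range of Igf2 in Ctrl mice, and every control value of Igfbp2, at most 1.55, was below every control value of Igf1r, at least 2.06.

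The order of the means in βCat-GOF adrenals was the same apart from 2 exchanges of neighbours, Igf2r with Igfbp4 and Igf2 with Igf1r. The 6 binding proteins summed to 652 ± 75.8 CPM per kb in Ctrl mice and 612 ± 120 in βCat-GOF mice (SD, n = 6 each), and the 2 ligands to 9.89 ± 2.61 and 6.39 ± 3.38. Igfbp7 alone made up 82.0% ± 3.48 of the binding protein sum in Ctrl mice and 80.0% ± 2.58 in βCat-GOF mice. The binding protein pool of the gland was thus mostly Igfbp7 transcript in every mouse, between 77.5% and 87.0%. The transcript level of Igf1 over that of Igf2 ranged from 0.395 to 2.80 in Ctrl mice and from 0.463 to 5.49 in βCat-GOF mice. The level of Igf2r over that of Igf1r ranged from 4.77 to 10.9 in Ctrl mice and from 3.94 to 7.92 in βCat-GOF mice.

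**Figure D2:**
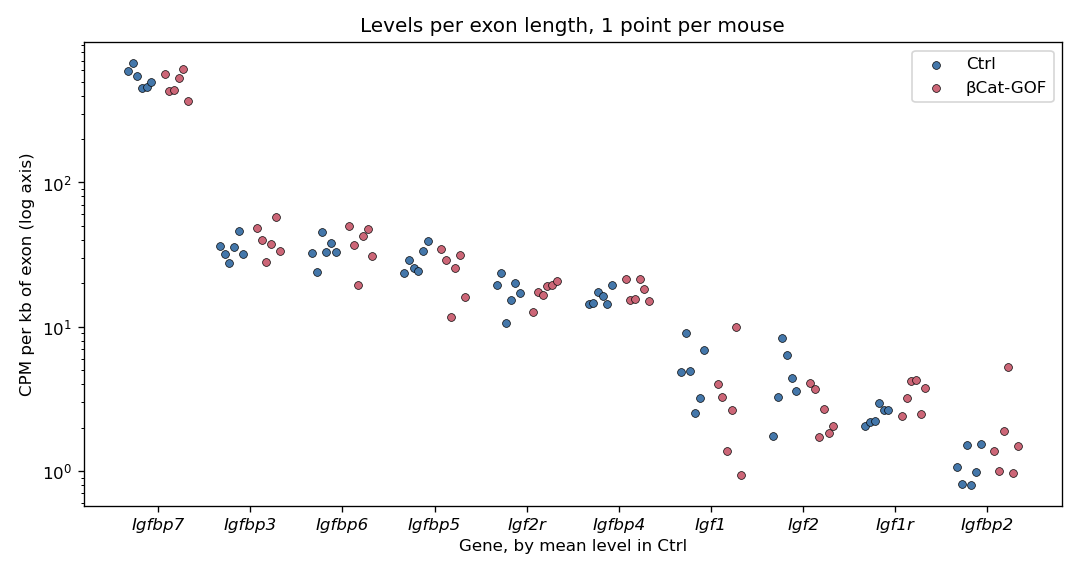
CPM per kb of exon (vertical log axis) of each member, ordered by its mean level in Ctrl, with 1 point per mouse (blue, Ctrl; red, βCat-GOF). Igfbp7 lies above all other members in every mouse, and the points of Igf1 spread from 0.943 to 10.0 in βCat-GOF mice.

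Among the ligands, Igf1 spans 87858265 to 87937042 of chromosome 10 (plus strand, GRCm38, the assembly of mm10), and no exon of it overlaps another gene. The 6 controls had between 501 and 1773 normalized counts (median 976), and the βCat-GOF mice had 781, 646, 276, 525, 2014 and 191 in replicates 1 to 6. Igf1 was thus below the control median in 5 of the 6 βCat-GOF mice and above all controls in replicate 5, whose label begins with another number than those of the other βCat-GOF mice. The highest value was 10.6 times the lowest in βCat-GOF mice and 3.54 times in Ctrl mice. The standard deviation of log2 CPM was 0.68 in Ctrl mice and 1.20 in βCat-GOF mice, where the medians over all genes were 0.21 and 0.28, and 98.5% of genes spread less than Igf1 in βCat-GOF adrenals. The log2 fold change was -0.50 (standard error 0.48, 95% interval -1.52 to 0.53, adjusted p = 0.599 in edgeR). Without βCat-GOF replicate 5 it was -1.09, still short of the threshold (adjusted p = 0.166 in edgeR). At the spread of this gene a 3.55-fold change would have been needed to pass.

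Stromal cells and macrophages are known sources of Igf1. The 12 capsule and fibroblast markers, all detected, summed to between 552 and 956 CPM in Ctrl mice and between 408 and 942 in βCat-GOF mice. Within the βCat-GOF mice the sum was 408 CPM in replicate 3 and 496 in replicate 6, which had the lowest Igf1, and 942 in replicate 5, which had the highest. In controls this order did not hold, since the mouse with the most Igf1 (1773 normalized counts) had the lowest sum (552 CPM). The 12 macrophage markers, all detected, summed to between 506 and 942 CPM in Ctrl mice and between 406 and 695 in βCat-GOF mice, with 622 in replicate 5. The 8 adipocyte markers, all detected, summed to 785 CPM in replicate 5, the highest of the βCat-GOF mice, but to 935 in the control with the least Igf1. The part of these cells in the spread of Igf1 was not tested.

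β-Catenin acts on genes together with TCF/LEF factors, whose known binding sequence begins with CTTTG and continues with A and then A or T. The RefSeq promoters (250 bases before to 50 after the start, GRCm38.p6) were therefore searched on both strands for CTTTGAA and CTTTGAT. Of 14 promoters of the 10 members, 1 held CTTTGAA, against 5.14% of all 32851 promoters, and 0 held CTTTGAT, against 3.73%. The shorter CTTTG, which both contain, was in 8 of the 14 and in 53.9% of all. The promoter with CTTTGAA was that of Igf1, chr10:87860861-87861160 on the plus strand, shown because it is the only such match, with the match in capitals. A match is a description of these letters and shows no binding.
Igf1: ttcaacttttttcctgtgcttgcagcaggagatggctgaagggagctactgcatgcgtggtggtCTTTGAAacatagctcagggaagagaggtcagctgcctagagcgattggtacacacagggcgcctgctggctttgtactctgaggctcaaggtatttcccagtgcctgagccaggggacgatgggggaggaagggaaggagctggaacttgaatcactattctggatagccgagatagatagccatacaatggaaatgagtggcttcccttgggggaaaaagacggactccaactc

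Igf2 lies on chromosome 7 from 142650766 to 142666816 on the minus strand and is an imprinted gene, expressed from the paternal allele in most tissues. The controls had between 201 and 960 normalized counts (median 458) and the βCat-GOF mice between 200 and 455 (median 273). All 6 βCat-GOF mice lay below the control median, yet only 1 lay below every control (200 against 201). The spread was wide in both groups, 0.79 in Ctrl mice and 0.53 in βCat-GOF mice as the standard deviation of log2 CPM. Igf2 had the lowest fold of the 10 members, with a log2 fold change of -0.79 (standard error 0.33, 95% interval -1.51 to -0.08, unadjusted p = 0.0316, adjusted p = 0.198 in edgeR). Without βCat-GOF replicates 1 and 2, a choice made after the data were seen, it was -1.17 (adjusted p = 0.0544 in edgeR). With 1 surrogate variable in the fit it was -0.40 (adjusted p = 0.48 in edgeR), and without Ctrl replicate 3, which had the most Igf2, -0.53 (adjusted p = 0.391 in edgeR). Its annotation holds an overlap of 64.5% of exon bases with other genes, mostly with the readthrough gene Gm49394. Counting only genes that have a row in the count table, 1.71% overlapped, with the antisense transcript Igf2os. Igf2os had at most 33 raw counts in any library.

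Among the Ctrl mice the order of Igf2 was that of the summed markers of the adrenal medulla, and also that of the summed glial markers. The 10 medulla markers, which include the catecholamine enzymes Th, Dbh and Pnmt, were all detected and summed to between 4034 and 12336 CPM in Ctrl mice and between 5120 and 9872 in βCat-GOF mice. Chga and Chgb weigh most in this sum, with Ctrl means of 62671 and 71873 normalized counts against 11597 for Th. In the 6 controls, ordered by Igf2 as 201, 370, 409, 506, 732 and 960 normalized counts, the medulla sums were 4034, 7360, 7733, 9009, 12081 and 12336 CPM, which is the same order. In the βCat-GOF mice the order was not the same, with 9872 CPM in the mouse at 308 normalized counts of Igf2 and 7019 in the mouse at 455. None of the 10 medulla markers passed edgeR's test, where 3.68% of all genes did. There were 2 at an unadjusted p under 0.05, against 20.4% of all genes, and 0 with DESeq2, against 7.57%. The median log2 fold change of these markers was -0.35. The part of the medulla or of glia in the values of Igf2 was not tested.

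The pattern most like that of a member was measured as the root-mean-square distance between log2 CPM standardized within each genotype over the 12 mice, among genes with a mean above 100 counts, where 0 is the same pattern and the median over all genes was between 1.28 and 1.3. For Igf2 the nearest genes were Rundc3a (0.17), Nfasc (0.19) and Ampd3 (0.21). For Igf1, added after its values were seen, the nearest was Loxl2, a lysyl oxidase of the extracellular matrix (0.27), followed by Esr1, the estrogen receptor α (0.46), and Sox5 (0.46). The distances of Igf2 to its neighbours were thus smaller than those of Igf1. Points that share a library also share its depth and cell mix.

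**Figure D3:**
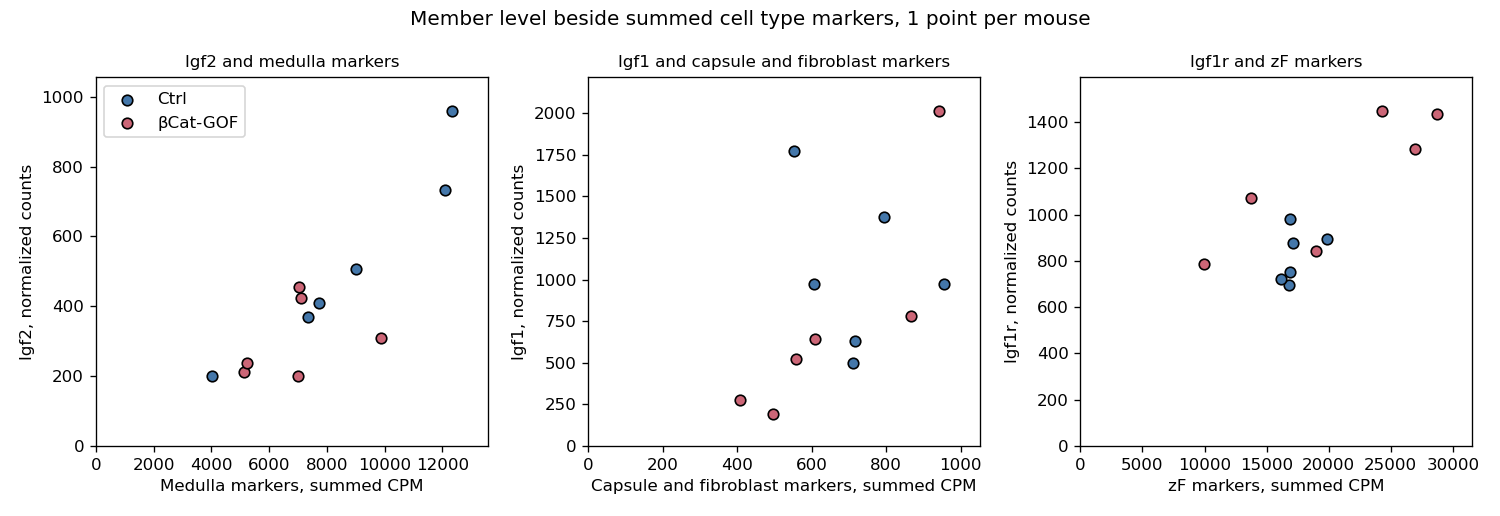
Normalized counts of Igf2, Igf1 and Igf1r (vertical axes) against the summed CPM of medulla, capsule and fibroblast, and zF markers (horizontal axes), 1 point per mouse (blue, Ctrl; red, βCat-GOF). In controls Igf2 and the medulla sum share their order over the 6 mice. The 3 βCat-GOF mice with the highest Igf1r have the highest zF sums, whereas the control with the highest Igf1r does not have the highest control sum.

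Among the receptors, Igf1r, at 67952827 to 68233668 of chromosome 7 (plus strand), had the smallest p of the family. The controls had 698, 722, 753, 982, 879 and 893 normalized counts, and the βCat-GOF mice 788, 1071, 1449, 1436, 843 and 1282 in replicates 1 to 6. Igf1r was thus above every control in 4 of the 6 βCat-GOF mice, while replicate 1 and replicate 5 lay within the control range. The mean was 821 ± 113 in Ctrl mice and 1145 ± 290 in βCat-GOF mice (SD, n = 6 each), a 1.38-fold difference with a 95% interval of 1.1 to 1.74 (log2 fold change 0.47, standard error 0.15, unadjusted p = 0.00889, adjusted p = 0.113 in edgeR). Leaving out βCat-GOF replicate 1 gave a log2 fold change of 0.56 that passed (adjusted p = 0.0354 in edgeR), as 6.37% of all genes then did. Leaving out both replicates 1 and 2 gave 0.60 (adjusted p = 0.0288 in edgeR), where 11.5% of all genes passed. In the other 11 fits that left out 1 mouse Igf1r was not called, and with 1 surrogate variable it was 0.31 (adjusted p = 0.294 in edgeR).

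The 6 zF markers, all detected, summed to between 16189 and 19855 CPM in Ctrl mice and between 9988 and 28702 in βCat-GOF mice. The 3 βCat-GOF mice with the most Igf1r also had the highest zF sums. These were 24299 CPM in replicate 3, 28702 in replicate 4 and 26937 in replicate 6. Of the βCat-GOF mice, replicate 1 had the lowest of both. Among controls the mouse with the most Igf1r (982 normalized counts) had a zF sum of 16902 CPM. The highest control sum, 19855 CPM, was in a mouse at 893. By mean change 4 of these markers were higher and 2 lower (3 of the 6 were called with DESeq2, where 7.57% of all genes were). In edgeR's test 2 of the 6 passed, where 3.68% of all genes did, and both were higher, Akr1b7, a reductase of the zF (log2 fold change 1.48, adjusted p = 0.0458), and Mrap, the accessory protein of the ACTH receptor (1.03, adjusted p = 0.0433). Both were above every control in 5 βCat-GOF mice and below every control in the other. Srd5a2, a steroid 5α-reductase, had a lower mean and did not pass (-1.05, adjusted p = 0.0694 in edgeR), with 4 βCat-GOF mice below every control, and Cyp11b1, the 11β-hydroxylase of the zF, was at -0.18 (adjusted p = 0.669 in edgeR). The part of the zF in the values of Igf1r was not tested. The genes with the pattern nearest to Igf1r were Sestd1 (distance 0.40), Rcn1 (0.43) and Dlg1 (0.44). The Igf1r promoter, chr7:67952007-67952306 on the plus strand, is shown because this member had the smallest p. It held CTTTG at 2 places, in capitals, and neither CTTTGAA nor CTTTGAT, and 76.0% of its bases were G or C.
Igf1r: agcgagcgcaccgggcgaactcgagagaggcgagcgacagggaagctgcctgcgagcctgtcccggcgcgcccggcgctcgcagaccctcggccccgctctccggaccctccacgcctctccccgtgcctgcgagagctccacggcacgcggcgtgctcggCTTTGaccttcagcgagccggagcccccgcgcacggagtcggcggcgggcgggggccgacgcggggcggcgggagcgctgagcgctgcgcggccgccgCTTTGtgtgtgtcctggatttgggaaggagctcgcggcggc

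Igf2r lies on chromosome 17 from 12682406 to 12769664 on the minus strand and is expressed from the maternal allele in most mouse tissues. It had between 1989 and 4350 normalized counts in Ctrl mice (median 3411) and between 2296 and 3931 in βCat-GOF mice (median 3415). The medians were thus nearly equal and the groups lay over each other. Its log2 fold change was 0.0013 (standard error 0.17, 95% interval -0.36 to 0.36, adjusted p = 0.998 in edgeR), so that a change larger than 1.28-fold either way lay outside the interval. Its antisense transcript Airn, which silences the paternal Igf2r allele, had 77.7 ± 17.9 normalized counts in Ctrl mice and 52.8 ± 12.8 in βCat-GOF mice (SD, n = 6 each; log2 fold change -0.56, adjusted p = 0.162 in edgeR). Airn was read without known strand, and reads within the introns of Igf2r cannot be separated from it.

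Of the binding proteins, Igfbp3, on chromosome 11 from 7206086 to 7213923, encodes the main carrier of IGFs in blood. It had between 1747 and 2871 normalized counts in Ctrl mice (median 2103) and between 1791 and 3646 in βCat-GOF mice (median 2421), with 2 of the 6 βCat-GOF mice above every control. Its log2 fold change was 0.23 (standard error 0.16, 95% interval -0.12 to 0.58, adjusted p = 0.464 in edgeR). The highest value was again that of replicate 5, the mouse with the most Igf1. Igfbp1, the neighbour of Igfbp3 at a distance of 3539 bases and known as a liver product, had 0 counts in all 12 libraries, which allows a level of up to 0.222 CPM in the shallowest.

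Igfbp4, on chromosome 11 from 99041244 to 99054392, encodes a binding protein that mostly inhibits IGF action and is cut by the protease Pappa. It had the narrowest spread in βCat-GOF mice, between 1353 and 1888 normalized counts, against 1258 to 1731 in Ctrl mice. For Igfbp4 the log2 fold change was 0.15 (standard error 0.12, 95% interval -0.10 to 0.40, adjusted p = 0.498 in edgeR). At the standard error of this gene a 1.37-fold change would have been enough to pass, the smallest of the 10.

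Igfbp2 and Igfbp5 lie on chromosome 1 on opposite strands, with 5457 bases between their ends, from 72824503 to 72852474 and from 72857932 to 72874884. Igfbp2 had the fewest counts of the members, between 28 and 123 raw counts per library. Controls had between 29.4 and 57.3 normalized counts (median 37.6), and βCat-GOF mice had 195 in replicate 4 and between 36.5 and 70.7 in the other 5. The log2 fold change of 0.81 (standard error 0.40, 95% interval -0.04 to 1.66, adjusted p = 0.264 in edgeR) rested on that mouse and was 0.26 without it (adjusted p = 0.587 in edgeR). The genes nearest in pattern were Rhoc (distance 0.30), Nr2f6 (0.32) and Ydjc (0.35). In replicate 4 the sums of endothelial (969 CPM), of pericyte and smooth muscle (293 CPM) and of zF markers (28702 CPM) were also the highest of the 12 mice. Its sums of medulla (9872 CPM) and macrophage markers (695 CPM) were the highest of the βCat-GOF mice. The part of these cells in the value of Igfbp2 was not tested.

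Igfbp5, a binding protein that attaches to the extracellular matrix, went the other way by its mean. It had between 2865 and 4769 normalized counts in Ctrl mice (median 3263) and between 1423 and 4066 in βCat-GOF mice (median 3274). The low values were 1423 in replicate 3 and 1975 in replicate 6, below every control, and the other 4 βCat-GOF mice lay within the control range. These 2 mice also had the least Igf1 and the lowest capsule and fibroblast sums. Among controls the mouse with the highest such sum (956 CPM) had 3094 normalized counts of Igfbp5. The control with the lowest sum (552 CPM) had more, 3433. With edgeR the log2 fold change was -0.25 (standard error 0.23, 95% interval -0.75 to 0.25, adjusted p = 0.595 in edgeR).

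Igfbp6, on chromosome 15 from 102144362 to 102149511, encodes a binding protein that prefers IGF2. Controls had between 524 and 1013 normalized counts (median 733) and βCat-GOF mice between 445 and 1091 (median 881). The lowest βCat-GOF value was again that of replicate 3, and the highest, in replicate 1 and replicate 5, were those of the 2 mice with the highest capsule and fibroblast sums, 867 and 942 CPM. Its log2 fold change was 0.15 (standard error 0.20, 95% interval -0.29 to 0.58, adjusted p = 0.733 in edgeR).

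Igfbp7, on chromosome 5 from 77349240 to 77408041, had between 10913 and 16013 normalized counts in Ctrl mice and between 9059 and 14862 in βCat-GOF mice, with 3 of these below every control. For Igfbp7 the log2 fold change was -0.13 (standard error 0.14, 95% interval -0.43 to 0.16, adjusted p = 0.632 in edgeR). Of its exon bases 7.03% overlap Polr2b on the opposite strand. The 10 endothelial markers, all detected, summed to between 760 and 954 CPM in Ctrl mice and between 677 and 969 in βCat-GOF mice. Each had a lower mean in βCat-GOF mice (median log2 fold change -0.13). In edgeR's test 0 passed, where 3.68% of all genes did. There were 2 at an unadjusted p under 0.05, against 20.4% of all genes, and 0 with DESeq2, against 7.57%. The part of vessels in the value of Igfbp7 was not tested.

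**Figure D4:**
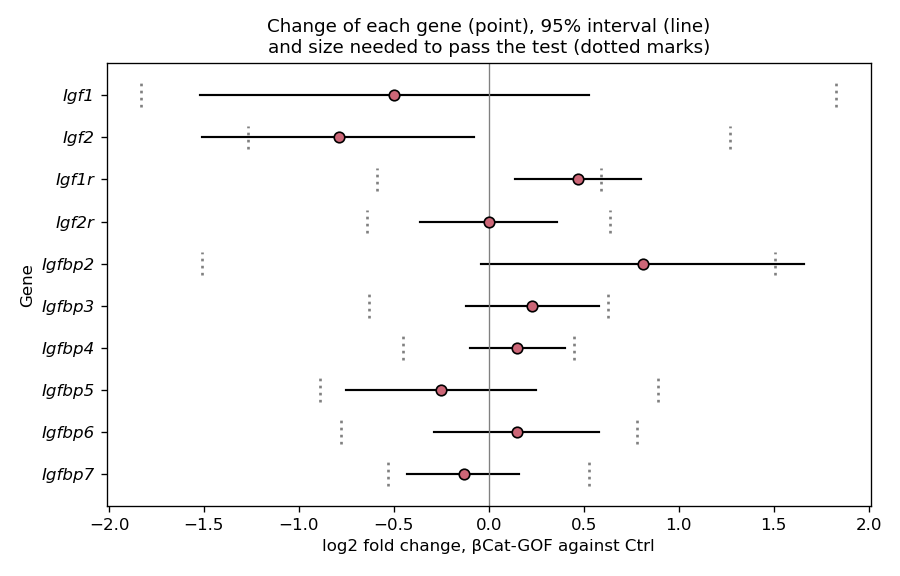
Log2 fold change of each member in βCat-GOF against Ctrl adrenals (points), with its 95% interval (lines) and the size that would have passed at its own spread (dotted marks on both sides of 0). No point reaches its dotted mark, and the marks lie between 0.45 (Igfbp4) and 1.83 (Igf1).

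The size of change needed to pass at the observed standard error differed between the members by their spread. It was between 1.37-fold for Igfbp4 and 1.86-fold for Igfbp5 in 7 of the 10 members, and 2.42-fold for Igf2, 2.85-fold for Igfbp2 and 3.55-fold for Igf1. These sizes hold at the standard errors seen here and are no limits of detection. With 6 mice per group a smaller true change can pass and a larger one can be missed. In 8 of the 10 members log2 CPM spread more in βCat-GOF mice than in Ctrl mice, as did 70.0% of all genes, Igf2 and Igf2r being the exceptions.

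In edgeR's test the other genes of the pathway did not pass either. Over all genes tested 3.68% passed, 20.4% had an unadjusted p under 0.05 and DESeq2 called 7.57%. At these shares few or no calls would be found in lists this short. Of 30 genes of insulin and IGF signal transduction, 29 were tested and 0 passed edgeR's test (6 at an unadjusted p under 0.05, 0 with DESeq2), with a median log2 fold change of 0.03. Insr, the insulin receptor, had 2946 normalized counts in Ctrl mice and 3021 in βCat-GOF mice on average. Of 15 proteases that cut binding proteins and their inhibitors, 12 were tested and 0 passed (2 at an unadjusted p under 0.05, 1 with DESeq2), with a median of 0.03. Of 7 genes of the growth hormone axis, which drives Igf1 in the liver, 7 were tested and 0 passed (0 at an unadjusted p under 0.05, 0 with DESeq2), with a median of -0.09. Of the 6 CCN proteins, matrix proteins that share a domain with the binding proteins, 4 were tested and 0 passed (0 at an unadjusted p under 0.05, 0 with DESeq2), with a median of -0.15. Among 11 further relatives, 4 were tested and 0 passed (2 at an unadjusted p under 0.05, 0 with DESeq2), and Igfbp1, Ins1 and Igflr1 had 0 counts in every library.

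In contrast, 2 of 19 imprinted growth genes, a list that includes Igf2 and Igf2r, rose in βCat-GOF adrenals and 0 fell, where 2.16% of all genes were called higher and 1.52% lower. Mest, a paternally expressed gene of the hydrolase fold family, had between 544 and 1166 normalized counts in Ctrl mice and between 1763 and 4251 in βCat-GOF mice (log2 fold change 1.78, standard error 0.24, adjusted p = 0.00173 in edgeR). Ndn, the paternally expressed growth suppressor necdin, had between 2503 and 3558 in Ctrl mice and between 4210 and 7420 in βCat-GOF mice (log2 fold change 0.95, standard error 0.15, adjusted p = 0.0035 in edgeR). The groups did not overlap in either gene. The remaining 17 did not pass and the median of the list was -0.04. H19, the noncoding neighbour of Igf2 that shares its imprinting control region, had 29.2 ± 7.94 normalized counts in Ctrl mice and 27.1 ± 15.0 in βCat-GOF mice (SD, n = 6 each; adjusted p = 0.907 in edgeR).

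Of the marker lists of other cell types, zG markers had 4 of 9 tested genes higher (Agtr1b, Agtr1a, Vsnl1 and Dab2), where 2.16% of all genes were. The 1 zG marker with a lower mean was Cyp11b2 (log2 fold change -0.18, adjusted p = 0.82 in edgeR). Macrophage markers had 3 of 12 lower (Itgax, Adgre1 and Mrc1), where 1.52% of all genes were. At an unadjusted p under 0.05 there were 6 zG and 9 macrophage markers, against 20.4% of all genes. DESeq2 called 6 and 5, against 7.57% of all genes. In edgeR's test 0 genes passed among the X-zone (4 tested, 1 at an unadjusted p under 0.05, 1 with DESeq2), capsule and fibroblast (12 tested, 1, 0), pericyte (8 tested, 3, 2), adipocyte (8 tested, 1, 0) and glial markers (5 tested, 0, 0), the same 2 counts following each number tested. Their part in the values of the members was not tested beyond the values given beside them.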

How the data were processed

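Counts of RNA-seq reads per gene were taken for 6 Ctrl and 6 βCat-GOF libraries, with groups from the sample titles. Per the paper's methods and the submitters' processing notes, the authors trimmed adapters (cutadapt), aligned to mm10 (STAR), and used featureCounts 1.4.4 on reads with 1 mapping place; they deposited these counts without normalization. The annotation release and strand setting are not given in the sources used here. The authors also deposited a signal table, the counts of each library divided by 1 size factor (0.9545 to 0.9758 times DESeq2's median-of-ratios factor), from which gene symbols were read. No column was left unmapped (0 columns). The paper's heatmap legend gives 6 and 6 female mice for the 12 libraries, although 3 pairs of labels share a stem. The p-values measure the spread between libraries, which may in part be technical.

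Normalized counts are counts divided by the median-of-ratios factors of DESeq2 1.42.0. Tests used edgeR 4.0.16 in R 4.3.3 (TMM, filterByExpr, quasi-likelihood, two-sided) and p-values were adjusted by Benjamini-Hochberg over 14953 tested genes. Standard errors are the log2 fold change divided by the square root of F, and 95% intervals use the total degrees of freedom of the fit. The size needed to pass is that giving the largest p called, 0.00184, at the standard error of the gene. Log2 CPM used a prior count of 2. Exon lengths and positions are from GENCODE M21 (GRCm38, the assembly of mm10). A search with blastn 2.17.0 for copies (95% identity over 10% of the longest transcript) found only Gm49394 for Igf2. On simulated counts with 200 genes changed 2-fold, edgeR recovered 177 (88.5%) with 7 false calls among 14799 genes. The changed genes were drawn from those with a mean above 100 counts, and each gene had the same dispersion in both groups. This share is over such genes together and is no rate for a single member.

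The members and lists were chosen with earlier results of these data known. Named genes are the members, at most 6 genes past the test in each list, and the 3 genes nearest in pattern to each of the 3 members with the smallest p. Srd5a2, Cyp11b1, Cyp11b2, Kcnk3, Dcn, Chga, Chgb, Insr, Airn, H19, Igf2os, Igfbp1, Ins1, Igflr1, Ctnnb1 and the neighbours of Igf1 were named after their values were seen. Alternatives were DESeq2, DESeq2's factors in edgeR, no filter, at least 10 counts in every library, the study's cut-offs (fold above 1.4, base mean above 100), 1 surrogate variable from sva 3.50.0, same-stem libraries left out or summed, and each library left out. The authors' factors and the fit without βCat-GOF replicates 1 and 2 were added after the data were seen. Protein sequences were not used here. A result for 1 gene of the marker lists is not reported here.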

Additional observations from a re-analysis of the deposited data

Results flagged for a closer look

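A screen of each member in each group, 20 groups of 6 mice, marked a mouse whose distance to its nearest neighbour took up an unusual part of the range of its group (Dixon's criterion). It marked 2, where chance gives about 1 in 20 groups if values are normally distributed. The screen used normalized counts without logarithms, for which this rate need not hold. Igf1 was at 2014 normalized counts in the βCat-GOF replicate 5, with a gap of 0.676 of the range to the next mouse. Igfbp2 was at 195 normalized counts in the βCat-GOF replicate 4, with a gap of 0.784 of the range.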

How the results depend on the processing

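No paired analysis was possible because the labels give mouse numbers and no replicate number shared between the groups. Over 22 alternatives (the fit without βCat-GOF replicate 5 among them under 2 names) for each of the 10 members, 209 of 220 values kept their direction and their side of the threshold, 2 passed it (both Igf1r) and 9 changed sign (all Igf2r, reported as 0.0013). Igf2r was -0.13 with 1 surrogate variable, -0.01 without the suffixed library of each same-stem pair, -0.02 without βCat-GOF replicate 5 and between -0.10 and 0.10 with each mouse left out. The number of members past the test was between 0 and 1 with each mouse left out, and 1 without βCat-GOF replicates 1 and 2 (Igf1r in each case). Genes of the other lists past the test numbered 12, 20 with DESeq2 and between 6 and 13 with each mouse left out. All genes past the test numbered 551. They were 1244 with DESeq2, 356 with same-stem libraries summed, 1740 without βCat-GOF replicates 1 and 2, 352 under the cut-offs of the study and between 287 and 955 with each mouse left out. The cause of these shifts was not tested. Depth limits Igfbp2 most, at 28 to 123 raw counts.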
